A study of Mus musculus with 2 samples.

Results

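The 29 genes described here encode the enzymes of fatty acid beta-oxidation with its carnitine shuttle, the peroxisome proliferator-activated receptors (PPARs), a PPAR coactivator and 3 regulators of fuel use. They were taken as a fixed list of symbols and matched to the Ensembl identifiers of the expression tables, where all 29 were found among 21014 genes. By role, 22 are oxidation enzymes or carriers, 4 are receptors or their coactivator, and 3 (Pdk4, Ucp2, Txnip) are fuel and redox regulators.

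Lung fibroblastic stroma of C57Bl/6J mice was profiled cell by cell by RNA sequencing in droplets, with a 10x Genomics 3′ kit. One library came from mice fed a high fat diet for 16 weeks (HFD) and one from mice fed normal chow for 16 weeks (NC). Both groups shared the strain and the tissue, and the sources used here do not give the number, age or sex of the animals. Each diet had 1 library and thus no replicate, so nothing was tested, every interval below covers counting error only, and a ratio compares these libraries, not the diets.

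Barcodes under 500 genes or over 10% mitochondrial counts were left out, which kept 6089 HFD cells with a median of 10045 counts and 8140 NC cells with a median of 7524 counts. The deposited annotation names 5 classes. Pooled fibroblasts, used below unless a class is named, are the Asc1, Gas6 and Pi16 fibroblasts and the myofibroblasts, with 5493 HFD and 7890 NC cells. The class labelled pericytes held 596 HFD and 250 NC cells and was rich in genes of smooth muscle, with Acta2 at 12769 CPM in HFD and 12126 CPM in NC. In the same class Cspg4, a pericyte gene, was at 134 CPM in HFD and 99.8 CPM in NC. The Gas6 label was not set apart by its own gene, at 250.3 CPM in HFD and 309 CPM in NC Gas6 cells, against 279 CPM in HFD and 277 CPM in NC Pi16 cells. The libraries shared 16 barcodes among kept cells.

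Long-chain fatty acids are bound to coenzyme A, passed into the mitochondrion as carnitine esters, and shortened by repeated rounds of dehydrogenation, hydration, a second dehydrogenation and thiolysis, with the electrons handed to the respiratory chain. PPARs are nuclear receptors that bind fatty acids and, as dimers with retinoid X receptors, raise transcription of many of these genes from sites built of repeats of the hexamer AGGTCA. In the lung, lipid-laden fibroblasts of the alveolar wall, called lipofibroblasts, are known for PPAR gamma and for lipid storage, and sustained feeding on fat is known to raise fat oxidation in several tissues.

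Among the start regions shown are those of Hadhb, which faces Hadha from the opposite strand, and Cpt1a, the gate of the pathway. The others are those of Pdk4, the member with the lowest ratio, and Txnip, whose ratio differed in direction between classes. The part of these 4 regions in the members' values was not tested. Each is the 250 bases before the annotated start site, 5′ to 3′ on the gene's own strand, from RefSeq on GRCm38.p6, a build older than the mm39 named in the submitters' processing notes. The positions are chr5:30155003-30155252 (+) for Hadhb, chr19:3323051-3323300 (+) for Cpt1a, chr6:5496279-5496528 (-) for Pdk4 and chr3:96557707-96557956 (+) for Txnip. Capitals mark matches to 3 motifs, searched as written and as their reverse complement: the PPAR hexamer, the CCAAT box, and the forkhead-type motif GTAAACA.
Hadhb: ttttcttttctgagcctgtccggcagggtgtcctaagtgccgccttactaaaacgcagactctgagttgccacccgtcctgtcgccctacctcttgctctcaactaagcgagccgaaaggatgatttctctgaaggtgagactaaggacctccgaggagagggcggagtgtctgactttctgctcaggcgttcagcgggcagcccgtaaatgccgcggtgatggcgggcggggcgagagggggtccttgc
Cpt1a: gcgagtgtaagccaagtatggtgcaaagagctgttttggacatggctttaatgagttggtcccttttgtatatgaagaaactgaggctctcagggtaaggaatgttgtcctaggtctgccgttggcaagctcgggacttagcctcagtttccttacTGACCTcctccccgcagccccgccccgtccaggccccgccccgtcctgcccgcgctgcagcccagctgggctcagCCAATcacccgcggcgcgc
Pdk4: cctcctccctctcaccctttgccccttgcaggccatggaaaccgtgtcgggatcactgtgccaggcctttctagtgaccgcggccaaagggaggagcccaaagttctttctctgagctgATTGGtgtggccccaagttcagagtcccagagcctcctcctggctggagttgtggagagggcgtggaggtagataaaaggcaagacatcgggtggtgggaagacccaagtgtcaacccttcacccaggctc
Txnip: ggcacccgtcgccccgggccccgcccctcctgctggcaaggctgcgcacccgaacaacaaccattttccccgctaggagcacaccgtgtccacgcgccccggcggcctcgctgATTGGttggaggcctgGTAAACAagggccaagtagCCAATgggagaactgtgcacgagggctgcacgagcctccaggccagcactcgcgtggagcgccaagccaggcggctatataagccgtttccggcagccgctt
The Cpt1a window held the hexamer on the minus strand 94 to 89 bases before the start and a CCAAT box 19 to 15 bases before it. The Txnip window held a CCAAT box at 137 to 133 and another at 102 to 98 bases before the start, on either side of the forkhead-type motif at 121 to 115. The Pdk4 window held 1 CCAAT box, at 131 to 127 bases before the start. The Hadhb window held none of the 3 motifs. The start sites of Hadha (30154980, minus strand) and Hadhb (30155253, plus strand) have 272 bases between them on chromosome 5, so the Hadhb window shown lies wholly between the 2 genes, with 58.8% of its bases G or C. These genes encode the alpha and beta subunits of the mitochondrial trifunctional protein.

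Windows of this length were found for 26 of the 29 members. AGGTCA stood on either strand in 6 of 28 member windows, beside 14.02% of all 32851 windows. Those 6 belong to 5 members (Acadm, Acadvl, Cpt1a, Cpt1c and Pparg). A direct repeat of that hexamer with 1 base between the copies, the form bound by PPARs, stood in the windows of 0 members and in 0.0335% of all windows. CCAAT stood in 14 of 28 member windows, which belong to 13 members, beside 33.8% of all windows. GTAAACA stood in 1 of 28 member windows, that of Txnip, beside 3.17% of all windows. A match describes letters in a window, not a bound site.

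In pooled fibroblasts the transcripts of fatty acid oxidation were slightly more abundant in the HFD library at every step of the pathway, while Pdk4, the kinase that shuts pyruvate out of the mitochondrial oxidation route, was well below its NC level. Summed over the 22 enzymes and carriers, the level was 1294 CPM (95% counting interval 1274 to 1315) in HFD and 1109 CPM (1093 to 1125) in NC, a ratio of 1.17 (1.14 to 1.19). All 22 had a ratio above 1, as did 53.7% of the 13422 genes measured, and their log2 ratios lay between 0.04 and 0.65. Under 12 other ways of filtering, scaling or summing the cells 18 of the 22 stayed above 1 throughout, the exceptions being Slc25a20, Hadha, Acaa1a and Ehhadh. The median log2 ratio of the measured members was 0.171, beside 0.025 over all genes measured.

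A gene was taken as measured from 50 effective counts upwards, both libraries together. Effective counts are recovered counts divided by a factor for their excess spread over cells (4.85 in HFD, 3.98 in NC). A measured gene was called by size with a ratio of HFD over NC of at least 1.5 or at most 0.667. Of 27 measured members, 3 were higher (Cpt2, Acads and Ucp2) and 1 was lower (Pdk4), beside 10.2% of all genes called in either direction, 5.45% higher and 4.75% lower. With so few members called, these counts are not taken as a result about the members. The enzymes shared a small ratio in 1 direction rather than large ones. Pdk4 was called under each of the 12 other ways of handling the cells and Acads under 11, but Cpt2 under 5 and Ucp2 under 6. With the mean CPM per cell in place of summed counts 0 members were called higher, and after thinning to 3000 counts per cell Acads alone was. Called genes were most frequent under 10 CPM, at 17.2% of genes, where 2 of 7 measured members were called (Cpt2 and Ucp2). At 10 to 30 CPM 5.97% of genes and 2 of 4 members (Acads and Pdk4) were called. At 30 to 100 CPM 5.11% and at 100 to 400 CPM 7.16% of genes were called, and 0 of 16 members there.

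**Figure D1:**
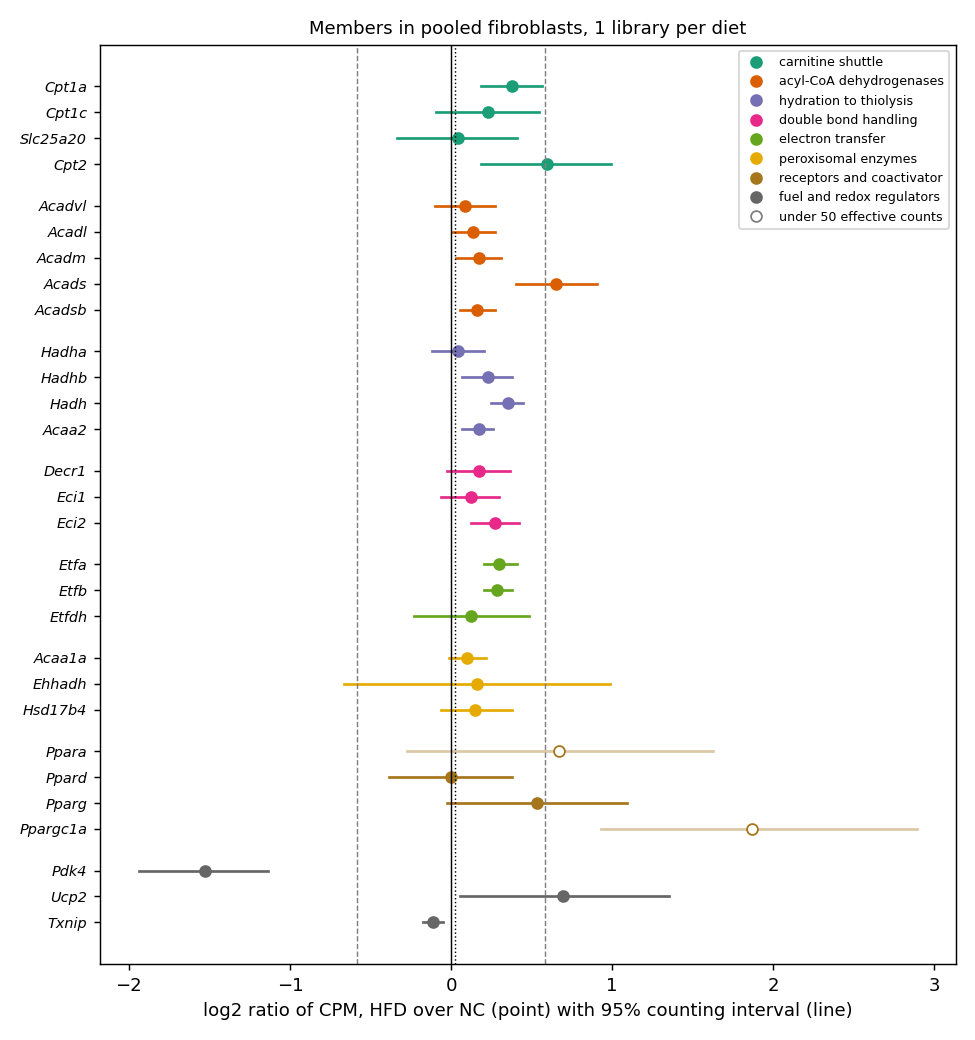
Log2 ratio of CPM, HFD over NC, of the 29 members in pooled fibroblasts, grouped by role, with 95% counting intervals as lines; dashed lines mark the ratio of 1.5 in either direction, the dotted line the median of all genes (0.025), and open points members under 50 effective counts. All 22 enzymes lie right of 0, between 0.04 and 0.65, and Pdk4 lies far to the left with a ratio of 0.347.

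The carnitine shuttle, which carries long-chain acyl groups across the inner mitochondrial membrane, had the highest ratio of the enzyme steps when its 4 genes were summed, 70.2 CPM in HFD and 56.00 CPM in NC, a log2 ratio of 0.33 and a ratio interval of 1.14 to 1.38. Cpt1a, the malonyl-CoA-inhibited entry enzyme on the outer membrane, was at 38.8 CPM (35.4 to 42.5) in HFD and 29.9 CPM (27.3 to 32.7) in NC, a ratio of 1.30 (1.14 to 1.48). The Cpt1a intervals of the libraries did not overlap. Cpt2, which returns the acyl group to coenzyme A inside the mitochondrion, was at 9.33 CPM in HFD and 6.18 CPM in NC, a ratio of 1.51 (1.14 to 1.99) from 539 HFD and 405 NC counts. The Cpt2 ratio lay close to the size limit and fell below it on scaling by TMM or by the median of ratios (log2 0.57 with either) and after thinning (1.40). The brain-type isoform Cpt1c was at 12.9 CPM in HFD and 11.03 CPM in NC, and its ratio of 1.17 had an interval that spanned 1. Slc25a20, the carnitine-acylcarnitine exchanger between Cpt1 and Cpt2, was nearly level, at 9.14 CPM in HFD and 8.90 CPM in NC (ratio 1.03, 0.794 to 1.33).

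The acyl-CoA dehydrogenases, which start each round and differ in the chain length they accept, summed to 299.8 CPM in HFD and 264 CPM in NC, a ratio of 1.14 (1.09 to 1.19). Acads, the short-chain enzyme, stood apart from its relatives at 23.4 CPM (20.7 to 26.3) in HFD and 14.9 CPM (13.1 to 16.9) in NC, a ratio of 1.57 (1.32 to 1.87). This was the highest ratio among the 22 enzymes, and the Acads intervals of the libraries did not overlap. Acadm, for medium chains, was at 64.6 CPM in HFD and 57.3 CPM in NC, and its ratio was 1.13 (1.02 to 1.24). Acadl, for long chains, was at 72.6 CPM in HFD and 65.9 CPM in NC (1.10, 1.01 to 1.21), and Acadsb, for short branched chains from isoleucine, at 105 CPM in HFD and 93.2 CPM in NC (1.12, 1.04 to 1.21). These 3 had ratios close to the median of the enzymes. Acadvl, the very-long-chain enzyme of the inner membrane, was at 34.6 CPM in HFD and 32.5 CPM in NC, with an interval that spanned 1 (1.06, 0.933 to 1.21).

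The steps from hydration to thiolysis summed to 383 CPM in HFD and 328 CPM in NC, a ratio of 1.17 (1.12 to 1.22). Hadh, the dehydrogenase for medium- and short-chain hydroxyacyl-CoA, had the highest ratio of this step, at 139.6 CPM (133 to 146) in HFD and 109 CPM (104 to 115) in NC, a ratio of 1.28 (1.19 to 1.36). Acaa2, the mitochondrial thiolase, was at 141 CPM in HFD and 125 CPM in NC (1.13, 1.05 to 1.20). The subunits of the trifunctional protein, whose genes lie head to head across the window printed above, both had a ratio above 1, that of Hadha with an interval that spanned 1. Hadhb was at 54.7 CPM in HFD and 46.7 CPM in NC, a ratio of 1.17 (1.05 to 1.30). Hadha was at 47.6 CPM in HFD and 46.2 CPM in NC, a ratio of 1.03 (0.923 to 1.15). The intervals of the Hadhb and Hadha ratios overlapped, so a difference between the subunits was not detectable at this depth.

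Unsaturated fatty acids need further enzymes that move or reduce double bonds, and these summed to 128 CPM in HFD and 111 CPM in NC, a ratio of 1.15 (1.08 to 1.23). Eci2, an enoyl-CoA isomerase, was at 58.3 CPM in HFD and 48.2 CPM in NC (1.21, 1.09 to 1.34). The related isomerase Eci1 was at 37.5 CPM in HFD and 34.5 CPM in NC (1.09, 0.958 to 1.23), and the dienoyl-CoA reductase Decr1 at 32.5 CPM in HFD and 28.8 CPM in NC (1.13, 0.984 to 1.29). All 3 were above 1, the intervals of Eci1 and Decr1 reaching below it.

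Electron transfer flavoprotein takes electrons from the dehydrogenases, and its genes with the membrane oxidoreductase Etfdh summed to 292 CPM in HFD and 238 CPM in NC, a ratio of 1.22 (1.17 to 1.28). Its 2 subunits had nearly the same ratio. Etfa was at 119 CPM (113 to 126) in HFD and 96.6 CPM (91.9 to 101) in NC, a ratio of 1.23 (1.15 to 1.33). Etfb was at 162 CPM (155 to 169.8) in HFD and 133 CPM (127 to 138) in NC, a ratio of 1.22 (1.15 to 1.30). For both subunits the HFD and NC intervals did not overlap. Etfdh, which passes the electrons to ubiquinone, was at 10.1 CPM in HFD and 9.19 CPM in NC (1.09, 0.854 to 1.40).

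The peroxisomal enzymes, which shorten very long chains before the mitochondrion takes over, had the lowest summed ratio of the enzyme steps, 121 CPM in HFD and 112 CPM in NC (1.08, 1.01 to 1.16). Acaa1a, the peroxisomal thiolase, was at 93.3 CPM in HFD and 86.95 CPM in NC (1.07, 0.992 to 1.16). Hsd17b4, the D-bifunctional protein, was at 25.6 CPM in HFD and 22.9 CPM in NC (1.11, 0.956 to 1.30). Ehhadh, the L-bifunctional protein and a classic PPAR alpha target in liver, was barely detected, with 119 HFD and 120 NC counts in 40 HFD and 45 NC cells. Its level was 2.06 CPM in HFD and 1.83 CPM in NC (1.12, 0.632 to 1.98).

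The receptors were sparse. Pparg, the receptor of fat storage, was at 4.90 CPM (3.72 to 6.33) in HFD and 3.39 CPM (2.56 to 4.40) in NC, a ratio of 1.45 (0.984 to 2.13) that rested on 77 HFD and 71 NC cells. Ppard, the widely expressed receptor, was level at 8.48 CPM in HFD and 8.47 CPM in NC, with a ratio interval of 0.767 to 1.30. Ppara, the receptor of fasting and fat oxidation, had 108 counts in 30 HFD cells and 77 counts in 26 NC cells, too few to be measured, with an interval from 0.826 to 3.09. Ppard, the receptor with the most counts, was thus nearly equal in the libraries.

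Ppargc1a, the coactivator of mitochondrial biogenesis, was just under the minimum at 49.4 effective counts. It had 174 counts in 50 HFD cells, 3.01 CPM (2.11 to 4.17), and 54 counts in 26 NC cells, 0.824 CPM (0.445 to 1.39). The ratio was 3.65 (1.91 to 7.41), and after each cell was thinned to 3000 counts it was 2.56, from 50 HFD and 27 NC counts. The 10 cells with most Ppargc1a held 43.1% of its HFD and 62.96% of its NC counts, so the value describes few cells.

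Pdk4, pyruvate dehydrogenase kinase 4, blocks the entry of glucose carbon into the mitochondrial acetyl-CoA pool and is raised by fasting, PPARs and FoxO factors in several tissues. It had 324 counts in 91 HFD cells and 1060 counts in 339 NC cells. Its level was 5.61 CPM (4.34 to 7.12) in HFD and 16.2 CPM (14.3 to 18.2) in NC, a ratio of 0.347 (0.261 to 0.455). The intervals were far apart, and the ratio was 0.314 after thinning to 3000 counts per cell. No other measured member was called lower. The 10 cells with most Pdk4 held 23.5% of its HFD and 10.6% of its NC counts.

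Ucp2, an inner-membrane carrier often read together with fat oxidation, was at 3.89 CPM (2.85 to 5.19) in HFD and 2.40 CPM (1.71 to 3.27) in NC. Its ratio of 1.62 (1.04 to 2.55) rested on 54 HFD and 59 NC cells, and 10 cells held 43.6% of its HFD and 36.9% of its NC counts. After thinning to 3000 counts per cell the Ucp2 ratio was 1.27, from 59 HFD and 64 NC counts, and no longer called. Txnip, an inhibitor of thioredoxin and of glucose uptake, had the most counts of any member. It was at 297 CPM (288 to 307) in HFD and 322 CPM (313 to 331) in NC, a ratio of 0.924 (0.885 to 0.964). Without the Asc1 class its log2 ratio was 0.09 in place of -0.11, since single classes differed in direction.

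**Figure D2:**
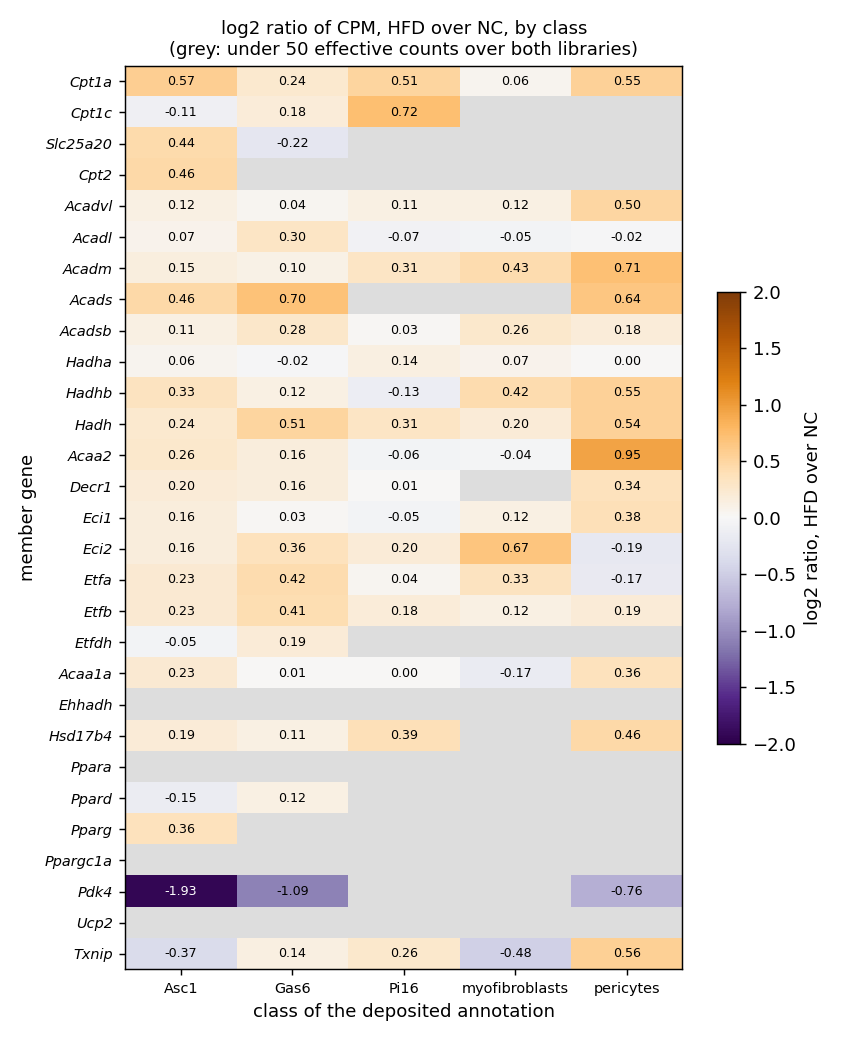
Log2 ratio of CPM, HFD over NC, of each member (rows) in each class of the deposited annotation (columns), with values in the cells and grey for members under 50 effective counts. Most enzyme cells are above 0, Pdk4 is -1.93 in Asc1 and -1.09 in Gas6 fibroblasts, and Txnip runs from -0.48 in myofibroblasts to 0.56 in the class labelled pericytes.

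Within classes, most enzymes again had a ratio above 1. This held for 19 of 21 measured enzymes in Asc1 fibroblasts, 18 of 20 in Gas6 fibroblasts, 13 of 17 in Pi16 fibroblasts, 11 of 14 in myofibroblasts and 14 of 17 in the class labelled pericytes. The share of all measured genes above 1 was 49.5%, 52.5%, 51.5%, 50.3% and 58.7% in the same order of classes. Counting unmeasured values as well, 9 of the 22 enzymes were higher in HFD in all 5 classes, and 16 in at least 4. The 9 include Cpt2, which was measured in Asc1 fibroblasts alone. The share of all genes with such a pattern was not computed, so these counts are not a result about the enzymes.

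The summed level of the 22 enzymes was 1419 CPM in HFD and 1224 CPM in NC Asc1 fibroblasts, a ratio of 1.16 (1.12 to 1.20). In Gas6 fibroblasts it was 1284 CPM in HFD and 1077 CPM in NC, a ratio of 1.19 (1.15 to 1.24). The other classes had lower sums in both libraries. Pi16 fibroblasts had 1036 CPM in HFD and 957 CPM in NC (1.08, 1.02 to 1.15), and myofibroblasts had 1038 CPM (965 to 1114) in HFD and 919.7 CPM (856 to 987) in NC, a ratio of 1.13. The class labelled pericytes had 1127 CPM in HFD and 917 CPM in NC (1.23, 1.14 to 1.32). The direction was thus the same in each class, with the lowest ratio in Pi16 fibroblasts. An SNAT2 subset that the finer annotation splits from the Asc1 class had 989 CPM in 245 HFD cells and 983 CPM in 359 NC cells (1.01, 0.841 to 1.20). These were the cells of the subset that passed the filter, from 810 HFD and 989 NC cells deposited. The Asc1 class without the subset kept a ratio of 1.16.

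**Figure D3:**
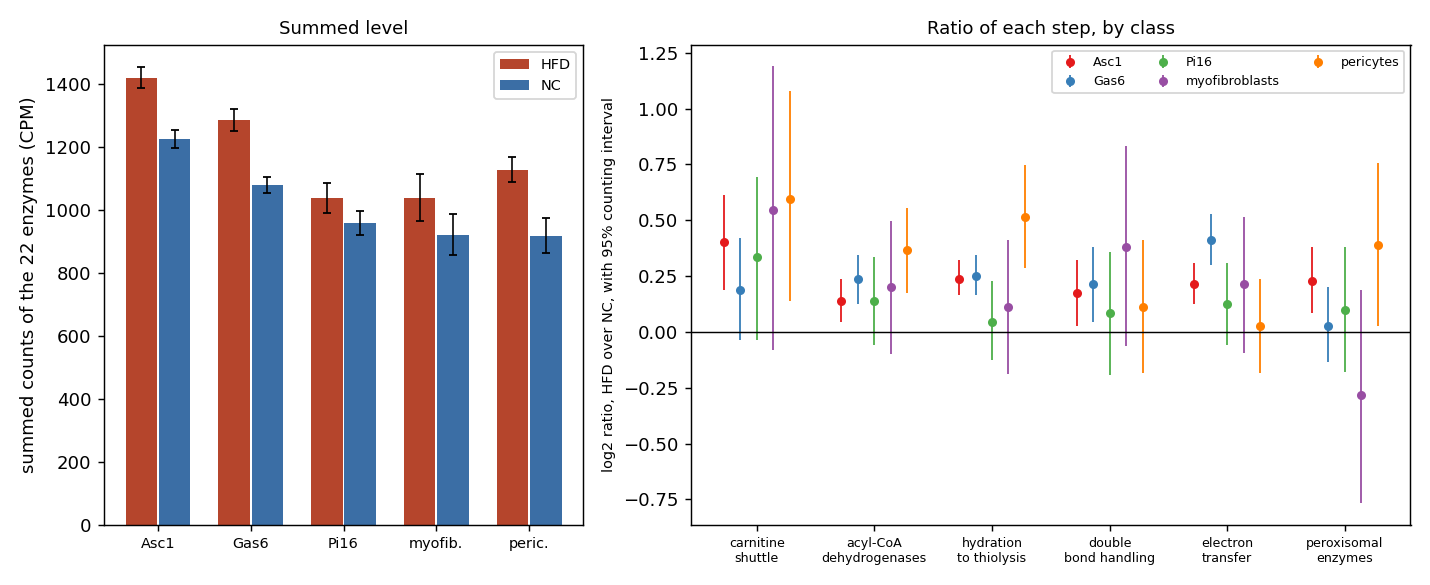
Left, summed level of the 22 oxidation enzymes in CPM by class, HFD bars left of NC bars, with 95% counting intervals; right, log2 ratio of HFD over NC of each enzyme step in each class, with the same kind of interval. The HFD bar is the taller in each class (1419 against 1224 CPM in Asc1), and the peroxisomal sum of myofibroblasts lies below 0 (-0.28).

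The steps did not share one order across classes. Electron transfer had its highest ratio in Gas6 fibroblasts, with 279.8 CPM in HFD and 211 CPM in NC (1.33, 1.23 to 1.44), and was level in the class labelled pericytes, with 243 CPM in HFD and 239.7 CPM in NC (1.02, 0.879 to 1.18). In that class the carnitine shuttle had the highest ratio of the steps, with 67.8 CPM in HFD and 44.9 CPM in NC (1.51, 1.10 to 2.11), followed by the steps from hydration to thiolysis, with 255 CPM in HFD and 178 CPM in NC (1.43, 1.22 to 1.68). The intervals of these ratios overlapped. The carnitine shuttle in Asc1 fibroblasts was at 73.6 CPM in HFD and 55.7 CPM in NC (1.32, 1.14 to 1.53), and Cpt1a alone had a ratio of 1.48 (1.20 to 1.82) there. In myofibroblasts Cpt1a was close to level, at 41.4 CPM in HFD and 39.8 CPM in NC. None of these differences between classes was tested.

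Called members were few in each class. In Asc1 fibroblasts 0 of 25 measured members were higher, beside 4.88% of all genes, and 1 (Pdk4) was lower, beside 5.46%. In Gas6 fibroblasts 1 of 23 was higher (Acads, 20.4 CPM in HFD and 12.6 CPM in NC), beside 6.08% of all genes, and 1 (Pdk4) was lower, beside 5.91%. In Pi16 fibroblasts 1 of 18 was higher, Cpt1c, at 19.5 CPM in HFD and 11.8 CPM in NC (1.65, 0.971 to 2.82), beside 5.70% of all genes, and 0 were lower, beside 5.88%. In myofibroblasts 1 of 15 was higher, Eci2, at 59.7 CPM in HFD and 37.5 CPM in NC (1.59, 0.986 to 2.60, and 1.37 after thinning), beside 7.62% of all genes, and 0 were lower, beside 7.94%. Each count was close to the share of all genes called.

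In the class labelled pericytes 3 of 19 measured members were higher, beside 11.4% of all genes, and 1 (Pdk4) was lower, beside 6.77%. Acaa2 was at 76.3 CPM in HFD and 39.5 CPM in NC (1.93, 1.39 to 2.75), Acadm at 99.8 CPM in HFD and 61.00 CPM in NC (1.64), and Acads at 36.5 CPM in HFD and 23.4 CPM in NC (1.56, 1.01 to 2.51). Which members were called depended on the handling of the cells, in alternatives chosen after seeing the data. The 3 of 19 became 7 of 13 measured under a stricter cell filter, 5 of 19 with means per cell and 8 of 19 after thinning. The share of all genes called under these alternatives was not computed, so the counts are not a result about the members. Acaa2 and Acadm were called under each of these alternatives, whereas Acads was called under none of them and had a ratio of 1.19 after thinning. Hadhb (2.17), Hadh (1.79) and Cpt1a (1.81) were among those called after thinning, on 18, 32 and 19 NC counts. The median log2 ratio of the members was 0.378 there, beside 0.083 over all measured genes. The NC values rest on 250 cells, and 10 of them held 47.7% of the NC counts of Acaa2. Summed markers of cardiac and pulmonary vein muscle, a tissue that depends on fat oxidation, were at 2133 CPM in HFD and 2831 CPM in NC in this class, 4 of 8 higher and 4 lower, and their part in the values was not tested.

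Pdk4 was lower in HFD in all 5 classes. In Asc1 fibroblasts it was at 4.92 CPM in HFD and 18.8 CPM in NC (0.262, 0.166 to 0.401), and in Gas6 fibroblasts at 6.40 CPM in HFD and 13.6 CPM in NC (0.470, 0.291 to 0.735). In the class labelled pericytes, where its level was higher than in the other classes of either library, it was at 20.4 CPM in HFD and 34.7 CPM in NC (0.589, 0.383 to 0.913). Pi16 fibroblasts, with 6.15 CPM in HFD and 16.2 CPM in NC, and myofibroblasts, with 5.07 CPM in HFD and 17.2 CPM in NC, had too few counts to be measured. The 4 fibroblast classes thus lay between 4.92 and 6.40 CPM in the HFD library and between 13.6 and 18.8 CPM in the NC library, with overlapping intervals within each library. After thinning to 3000 counts per cell the ratio in the class labelled pericytes was 0.747 and no longer called, while that in Asc1 fibroblasts was 0.265.

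Txnip differed in direction between classes. Asc1 fibroblasts, with the highest level, were at 418 CPM (401 to 436) in HFD and 539 CPM (521 to 557) in NC, a ratio of 0.776 (0.736 to 0.819), and myofibroblasts at 257 CPM in HFD and 358 CPM in NC, a ratio of 0.719 (0.596 to 0.865). Pi16 fibroblasts were at 186 CPM in HFD and 155 CPM in NC, a ratio of 1.20 (1.03 to 1.40), and the class labelled pericytes at 320.2 CPM in HFD and 218 CPM in NC, a ratio of 1.47 (1.27 to 1.70). Gas6 fibroblasts lay between them at 189 CPM in HFD and 172 CPM in NC (1.10, 0.999 to 1.20). No class reached the ratio that counts as called, although the class labelled pericytes did with means per cell (log2 0.60) and under the stricter cell filter (0.78).

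Levels also varied among the classes themselves. The class with the highest level was the same in both libraries for 11 of the 22 enzymes and another for 11, and Asc1 fibroblasts were highest for 12 in HFD and for 8 in NC. Hadh kept its order of Asc1, Gas6 and myofibroblasts in both. It was at 163 CPM in HFD and 138 CPM in NC Asc1 fibroblasts, at 158 CPM in HFD and 111 CPM in NC Gas6 fibroblasts, and at 38.3 CPM in HFD and 33.3 CPM in NC myofibroblasts. Its HFD intervals in Asc1 and Gas6 fibroblasts overlapped, and those in the Pi16 class and the class labelled pericytes, at 67.3 and 75.7 CPM, did too. Acadsb was highest in Gas6 fibroblasts in HFD and in Asc1 fibroblasts in NC, and lowest in myofibroblasts in both. It was at 117 CPM in HFD and 108 CPM in NC Asc1 fibroblasts, and at 39.7 CPM in HFD and 32.99 CPM in NC myofibroblasts. Etfb was among the flattest, between 143 and 169 CPM in HFD and between 123 and 144 CPM in NC across the 5 classes. Pparg was mostly a transcript of Asc1 fibroblasts, at 7.77 CPM in HFD and 6.07 CPM in NC, and had under 10 counts in either library in Pi16 fibroblasts and in myofibroblasts.

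**Figure D4:**
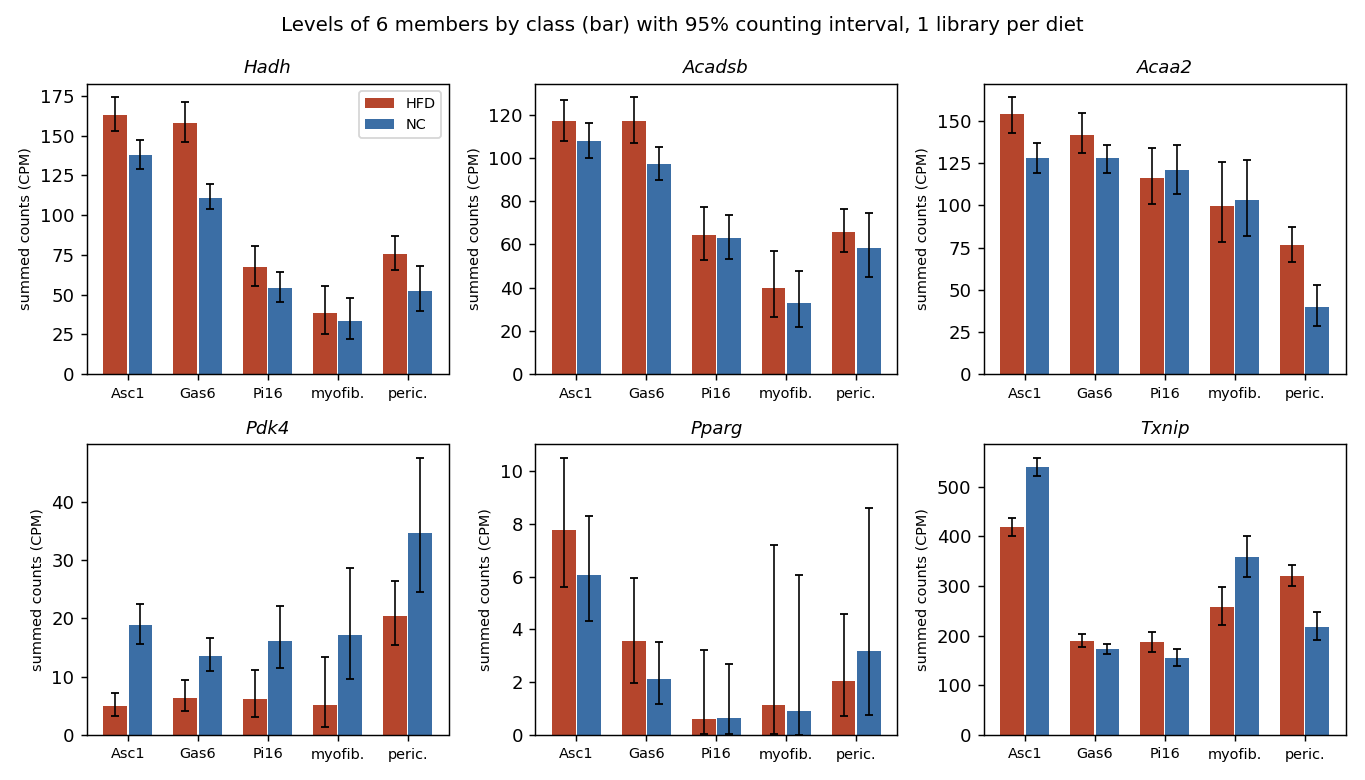
Summed counts in CPM of 6 members in each class, HFD bars left of NC bars, with 95% counting intervals. Hadh and Acadsb are highest in Asc1 and Gas6 fibroblasts and lowest in myofibroblasts in both libraries, the HFD bar of Pdk4 is the shorter in each class, and the Txnip bars change order between Asc1 (418 and 539 CPM) and the class labelled pericytes (320.2 and 218 CPM).

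Other genes of the same pathways were read from 10 lists, in pooled fibroblasts and against the same background of 10.2% called. A list of further mitochondrial acyl-CoA enzymes also held genes that are not such enzymes, among them Etfrf1 and Tmem126b. Of its 22 measured genes 18 had a ratio above 1, beside 53.7% of all genes, with a median log2 ratio of 0.166, and 1 was called higher. That gene was Acot2, a thioesterase that releases fatty acids from coenzyme A in the matrix, at 23.96 CPM in HFD and 14.4 CPM in NC (1.67, 1.40 to 1.99). Etfrf1, a regulator of electron transfer flavoprotein, was at 17.04 CPM in HFD and 12.1 CPM in NC, and Tmem126b, an assembly factor of respiratory complex I, at 17.5 CPM in HFD and 12.8 CPM in NC. The peroxisomal list was similar, with 17 of 23 above 1, a median of 0.145, 2 called higher and 0 lower. Abcd2, a peroxisomal importer of very long acyl-CoA, was at 51.3 CPM in HFD and 33.1 CPM in NC (1.55, 1.38 to 1.74). Pecr, a peroxisomal enoyl-CoA reductase, was at 12.8 CPM in HFD and 8.21 CPM in NC (1.56, 1.23 to 1.99), and the dienoyl-CoA isomerase Ech1 at 192 CPM in HFD and 143 CPM in NC (1.34, 1.27 to 1.42).

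The genes that activate fatty acids or handle carnitine did not lean either way, with 10 of 19 above 1, a median log2 ratio of 0.000, 1 called higher and 1 lower. The transporter family member Slc27a3 was at 49.9 CPM in HFD and 32.8 CPM in NC (1.52, 1.35 to 1.71). Slc22a5, the carnitine importer of the cell surface, was at 18.2 CPM in HFD and 25.7 CPM in NC (0.707, 0.597 to 0.834), and Acsl4, an acyl-CoA synthetase that prefers arachidonate, at 17.5 CPM in HFD and 23.96 CPM in NC (0.729, 0.614 to 0.865). Neither passed the size rule. The called lower gene was Cpt1b, the muscle isoform of the entry enzyme, at 1.44 CPM in HFD and 2.41 CPM in NC (0.596, 0.317 to 1.07), named after its value was seen.

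PPAR target genes outside beta-oxidation differed in direction, 4 of 18 measured called higher and 2 lower, with a median log2 ratio of 0.155. Fabp3, a fatty acid binding protein of heart and muscle, was at 89.9 CPM in HFD and 45.4 CPM in NC (1.98, 1.80 to 2.18) and higher in HFD in all 5 classes. Cd36, a fatty acid receptor, was at 5.07 CPM in HFD and 2.18 CPM in NC (2.32, 1.51 to 3.62), from 80 HFD and 49 NC cells. Lpl, lipoprotein lipase, was at 37.4 CPM in HFD and 60.99 CPM in NC (0.613, 0.547 to 0.686). The other called genes of the list, named after their values were seen, were Acot1 (1.56) and Fgf1 (1.80), higher, and Fabp4 (0.666, 0.348 to 1.23), lower. Of 22 measured receptors and co-regulators 1 was called, Rxrg, a dimer partner of PPARs, at 4.55 CPM in HFD and 1.10 CPM in NC (4.14, 2.39 to 7.49), from 74 HFD and 25 NC cells. Lpin1, a lipid phosphatase and coactivator of PPAR alpha, was at 42.4 CPM in HFD and 61.7 CPM in NC (0.687, 0.616 to 0.765). Sirt1, a deacetylase that acts on the coactivator encoded by Ppargc1a, was at 45.04 CPM in HFD and 60.9 CPM in NC (0.740, 0.665 to 0.822).

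Lists around Pdk4 and Txnip had median log2 ratios below 0, beside 0.025 over all genes measured. The median log2 ratio was -0.042 for 19 measured genes of pyruvate dehydrogenase and glucose entry, -0.078 for 13 fasting and FoxO responsive genes and -0.215 for 12 genes of TXNIP and glucose sensing. In the same order 8, 5 and 4 genes had a ratio above 1, beside 53.7% of all genes. The first list had 2 called higher and 1 lower, the second 0 higher and 1 lower, and the third 0 higher and 2 lower. Slc2a1, the glucose transporter GLUT1 and a gene of the first and the third list, was at 9.38 CPM in HFD and 19.2 CPM in NC (0.487, 0.389 to 0.607). Pdp1, the phosphatase that opposes the pyruvate dehydrogenase kinases, was at 20.5 CPM in HFD and 11.7 CPM in NC (1.75, 1.44 to 2.13). Pdk2, another kinase of that family, was at 7.30 CPM in HFD and 4.35 CPM in NC (1.68, 1.21 to 2.33), the opposite direction to Pdk4. Hk2, a hexokinase, was at 122 CPM in HFD and 171 CPM in NC (0.717, 0.672 to 0.764).

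Irs2, an adapter of the insulin receptor, was at 115 CPM in HFD and 181 CPM in NC (0.636, 0.596 to 0.678) and lower in HFD in all 5 classes. Angptl4, a PPAR target that inhibits lipoprotein lipase, was at 79.2 CPM in HFD and 114 CPM in NC (0.695, 0.642 to 0.752). Ddit4, an inhibitor of mTORC1 induced by stress, had 45 HFD and 163 NC counts, a ratio of 0.313 (0.135 to 0.649). These came from 23 HFD and 75 NC cells, and 10 cells held 66.7% of its HFD and 35.6% of its NC counts. Txnrd1, the reductase of thioredoxin, was at 82.7 CPM in HFD and 109 CPM in NC (0.758, 0.701 to 0.820). Of these 4 genes Irs2 and Ddit4 were called lower.

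Ketone body genes differed in direction, with 3 of 7 measured above 1 and 4 below, 0 called higher and 1 called lower. Slc16a1, a carrier of lactate and ketone bodies, was at 7.75 CPM in HFD and 12.99 CPM in NC (0.597, 0.462 to 0.765), and Oxct1, the enzyme that lets cells use ketone bodies, at 38.1 CPM in HFD and 52.8 CPM in NC (0.722, 0.643 to 0.810). Among 5 measured uncoupling and adenine nucleotide carriers 0 were called, with Slc25a5 at 129 CPM in HFD and 163 CPM in NC, Slc25a27 at 12.4 CPM in HFD and 8.77 CPM in NC, and Slc25a4 at 304 CPM in HFD and 299.6 CPM in NC.

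Several measures of the libraries differed beside these values, and their part in them was not tested. Summed markers of alveolar fibroblasts were at 14633 CPM in HFD and 10810.2 CPM in NC pooled fibroblasts, 9 of 9 higher. Cardiac and pulmonary vein muscle markers summed to 15.1 CPM in HFD and 9.0 CPM in NC, 8 of 8 higher, and macrophage and monocyte markers to 38.1 CPM in HFD and 52.7 CPM in NC, 4 of 10 higher. Of 6 adipocyte markers only 2, Plin1 and Cidec, were among the genes of the expression tables, and Cidec was at 0 in both libraries. The adipocyte value of 0.502 CPM in HFD and 0.183 CPM in NC was thus that of Plin1 alone. Epithelial markers summed to 75.4 CPM in HFD and 48.7 CPM in NC, 3 of 10 higher and 4 lower, with Epcam, Sftpc and Sftpa1 at 0 in both. Endothelial markers summed to 0.744 CPM in HFD and 1.40 CPM in NC, with Pecam1 at 0 in both, and markers of T, B and natural killer cells to 0.761 CPM in HFD and 4.53 CPM in NC, 0 of 6 higher and 5 lower, with Cd3e at 0 in both. Neutrophil markers summed to 0.813 CPM in HFD and 3.53 CPM in NC, and Ptprc, of the macrophage list, was at 0 in both. Markers of adventitial (Pi16) fibroblasts summed to 925 CPM in HFD and 1182 CPM in NC, 2 of 9 higher and 7 lower. Genes of dissociation stress summed to 30493 CPM in HFD and 28971 CPM in NC, 6 of 11 higher and 5 lower. The median mitochondrial share per cell was 3.63% in HFD and 3.53% in NC, and the median ribosomal share 6.03% in HFD and 5.46% in NC. By transcript length, the median log2 ratio was 0.292 for 1 enzyme and 0.073 for all genes of up to 1000 bases, and 0.155 for 4 enzymes and 0.047 for all genes of over 1000 and up to 2000 bases. It was 0.172 for 13 enzymes and 0.020 for all genes of over 2000 and up to 4000 bases, and 0.198 for 4 enzymes and 0.001 for all longer genes.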

How the data were processed

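One HFD and 1 NC library were compared. The deposited tables hold, for each cell, log2 values of CPM plus a pseudocount of 1, a scale found from the values because no header names it. Per the file headers, the authors also deposited the summed estimated counts of each cell, which were not always whole, the count of genes detected, and mitochondrial and ribosomal shares in percent. STAR and mm39 are named in the submitters' processing notes, and versions and molecule counting are not given in the sources used here. Undoing the log2 scale and multiplying by the cell total gave whole counts within 0.01 for 98.8% of HFD and 98.96% of NC nonzero values. All were rounded. Classes are the authors' deposited annotation.

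Counts were summed per library and class (Python 3.11.15, scipy 1.17.1). Levels have exact Poisson intervals, and ratios exact conditional intervals, at 95%, on effective counts, whose factors of 4.85 in HFD and 3.98 in NC were estimated from genes seen in 0.1 to 1% of cells. No doublet caller was applied. On simulated data for 13422 genes, 95.7% of intervals held the simulated ratio. Of 200 genes changed by a ratio of 0.5 or 2, 95.5% were called, as were 1.68% of unchanged genes. The simulated counts were drawn with the same factors that the intervals assume. The simulation therefore checks the calculation and cannot show whether those factors hold for real genes. Smaller changes, such as those of most enzymes, were not simulated.

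All 29 members are described. From each of 10 pathway lists the text names up to 3 measured genes, those with the interval bound nearest to 1 lying farthest from it. Cpt1b, Pdk2, Acot1, Fgf1 and Fabp4 were named after their values were seen. The members and lists were chosen with earlier results of these data known, and the motifs CCAAT and GTAAACA after the printed sequences were seen. Some list genes are not analysed here, and 1 gene that met the naming rule is not reported here. TMM factors came from edgeR 4.0.16 in R 4.3.3.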

Additional observations from a re-analysis of the deposited data

Results flagged for a closer look

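Txnip, an inhibitor of thioredoxin, had counting intervals of its HFD over NC ratio on opposite sides of 1 in different classes. The ratio was 1.20 in Pi16 fibroblasts and 1.47 in the class labelled pericytes, against 0.776 in Asc1 fibroblasts and 0.719 in myofibroblasts. The difference between classes was not tested, since each diet has 1 library. Alternatives chosen after seeing the data left the log2 ratio in Asc1 fibroblasts between -0.39 and -0.35 and that in the class labelled pericytes between 0.45 and 0.78. Leaving out the 10 cells with most counts of the gene gave 0.88 in that class, but takes a larger share of its 250 NC than of its 596 HFD cells and so raises the ratio by construction.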

How the results depend on the processing

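No paired analysis was possible because each diet has 1 library and the labels give no replicate numbers. Of 348 member values under 12 alternatives, 341 stayed within the interval of the value reported and 0 called values changed sign. The median log2 ratio of the members lay between 0.15 and 0.20 over 15 alternatives, and 18 of 22 enzymes stayed above 0 under each of 12, the exceptions being Slc25a20, Hadha, Acaa1a and Ehhadh. Pdk4 lay between -1.75 and -1.23. Txnip, at -0.11 in pooled fibroblasts, was at 0.09 without the Asc1 class. Scaling by TMM or by the median of ratios moved all genes by 0.023 or 0.025. The 3 members called higher became 2 with either scaling (Cpt2 was lost), 2 without the 10 cells with most counts of the gene, 2 with a minimum of 200 effective counts, 1 under the stricter cell filter, 1 without the 5% deepest cells, 1 after thinning, 0 with means per cell, 5 with a minimum of 20 effective counts or none, 6 at a smaller ratio threshold and 0 at a ratio of 2. The 1 member called lower became 2 with classes weighted equally. In the class labelled pericytes, under alternatives chosen after seeing the data, the 3 called higher became 7 under the stricter filter, 5 with means per cell, 8 after thinning and 12 without the 10 cells with most counts of the gene, and the 1 called lower became 0 under the stricter filter, after thinning and without those cells. Leaving out 10 cells takes a larger share of the 250 NC than of the 596 HFD cells there, which raises the ratio by construction, so those counts are no measure of stability. The cause of the other shifts was not tested. In the class labelled pericytes 13 members were measured under the stricter filter and 19 under the other alternatives. The share of all genes called was not computed under the alternatives, so the shifts in counts are not a result about the members. Depth limits Ppara, Ppargc1a, Ehhadh and Ucp2, and in the class labelled pericytes each NC value.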
